A study of Mus musculus with 8 samples.

Results

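Insm1, Ikzf2, Tbx2, Bcl11b and Neurod6 are 5 transcription factor genes with roles in, or expression linked to, the choice between the outer and the inner hair cell fate in the cochlea. They were taken by gene symbol, whatever their measured values, from the 25343 genes of the deposited table, and all 5 reached the minimum for testing, 10 or more normalized counts in 4 or more libraries, as 18203 genes did. The samples were cochlear hair cells of mice at postnatal day 4 to 6, sorted by the green fluorescence of an Atoh1-GFP reporter and sequenced as full-length cDNA. The tested genotype was the knockout (Ndp KO) of Ndp, the gene of the secreted signalling protein norrin, with 4 libraries. It was set against wild type (WT), also with 4 libraries. Both genotypes carried the reporter and had the same mixed C57BL/6 and 129 background, and each library came from a tube of 12 to 20 pooled sensory epithelia. Whether pools shared litters is not given, so the spread behind the p-values, that between libraries, may be technical. An RNA input of 1.6 to 2.4 pg is given for every library, and its part in the spread of low genes was not tested.

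The cochlea holds a single row of inner hair cells, which pass sound to the auditory nerve, and several rows of outer hair cells, which amplify it by changing length. Both arise from progenitors that express Atoh1 and then part ways under a small set of transcription factors. In mice, Insm1, a zinc-finger factor of newborn neurons and endocrine cells, keeps embryonic outer hair cells from taking on inner hair cell features, Ikzf2 (helios) drives the later outer hair cell programme, and Tbx2, a T-box factor, is required for the inner hair cell fate. Bcl11b is a zinc-finger factor best known from T lymphocytes and cortical neurons and is made in mouse outer hair cells. Neurod6 is a basic helix-loop-helix factor best known from cortical neurons.

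Libraries held 35077950 to 48329827 reads, recovered from the normalized counts, and these may be rounded estimates and not counted reads. Summed hair cell markers reached 379536 to 421381 normalized counts in Ndp KO and 344590.5 to 424457 in WT. Summed supporting cell markers reached 272659 to 373034 in Ndp KO and 205403 to 435529 in WT, so the sorted pools held transcripts of both cell classes. Of the 13 supporting cell markers, 7 were higher and 6 lower in Ndp KO. An unadjusted p under 0.05 (limma) was reached by 3 of the 13, all lower in Ndp KO, and by 5.57% of all genes tested. Ndp itself had 10.5, 22.6, 66.8 and 45.1 normalized counts in Ndp KO libraries 1 to 4, against 174, 90.4, 114 and 206 in WT libraries 1 to 4 (numbered in accession order, a name only), and the genotypes did not overlap. Its log2 difference (Ndp KO minus WT) was -2.20 ± 0.56 (SE), and it missed the threshold over all genes (limma, adjusted p = 0.895). Ndp KO library 1 stood apart in Neurod1, a factor of developing neurons, though its summed neuron markers were 1.10 times the median of the other 7 libraries. Neurod1 had 3082, 4.90, 58.6 and 0 normalized counts in Ndp KO, against 493, 133, 14.8 and 1.16 in WT, where library 1 was again the highest. Results on the members are therefore given also without Ndp KO library 1, and without library 1 of both genotypes, a choice made after these values were seen. Macrophage markers summed to 3819 to 6137 in Ndp KO and 2098 to 5138 in WT. Of the 12 markers, 11 were higher in Ndp KO, as were 52.5% of all genes tested. An unadjusted p under 0.05 was reached by 5 of them and by 5.57% of all genes tested. Of 11 tested mesenchyme markers 9 were higher in Ndp KO, and 2 had an unadjusted p under 0.05. Of 6 tested endothelial markers 5 were higher, and 1 had an unadjusted p under 0.05. The part of macrophage, supporting cell, mesenchyme or endothelial transcripts in the results below was not tested. In bulk samples, fewer cells of a type and less RNA per cell cannot be told apart.

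No member passed the test between the genotypes. In the fit over 18203 genes (limma on log2(normalized count + 1), two-sided, Benjamini-Hochberg adjustment, threshold 0.05), 0 of 5 members were called, where 0.00549% of all genes tested were. Likewise 0 of 5 had an unadjusted p under 0.05, against a background of 5.57%. The values of Ndp KO and WT overlapped for each of the 5, while 3.04% of all genes tested had genotypes that did not overlap. All 5 fitted differences were above 0, as were 52.5% of those of all genes, and the median was 0.42 for the members and 0.016 for all genes tested. As the next paragraphs show, 3 of these 5 directions turned when a library was left out. edgeR and DESeq2 called 0 of the 5 as well.

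**Figure D1:**
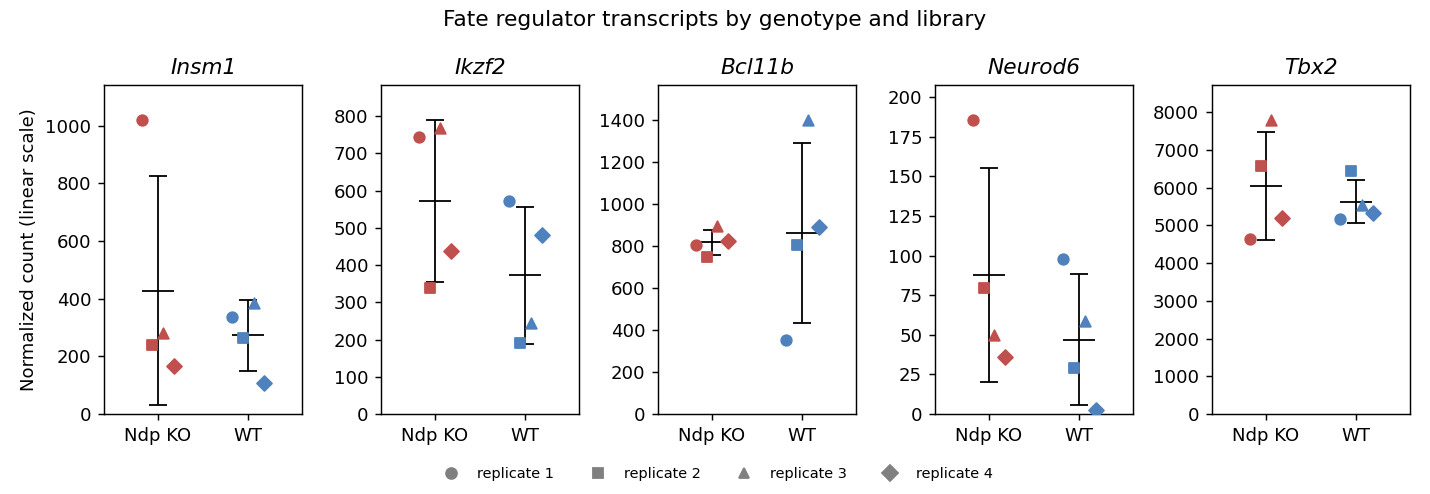
Normalized counts of the 5 members in each library (points), Ndp KO left and WT right, with the genotype mean and SD (n = 4 each). The genotypes overlap in all 5, and Insm1 in Ndp KO library 1 stands alone at 1018.

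The outer hair cell factor Ikzf2 (ENSMUSG00000025997, chromosome 1, 69531214 to 69687245, minus strand, mm10) varied between libraries of both genotypes. It had 745, 337, 768 and 438 normalized counts in Ndp KO libraries 1 to 4, against 572, 189.9, 245 and 481 in WT libraries 1 to 4. The highest values were those of Ndp KO libraries 1 and 3 and the lowest those of WT libraries 2 and 3, with Ndp KO libraries 2 and 4 and WT libraries 1 and 4 in between. The means were 572 ± 217 in Ndp KO and 372 ± 184 in WT (SD, n = 4 each). The log2 difference was 0.68 ± 0.40 (SE; 95% interval -0.20 to 1.56; limma, adjusted p = 0.922). The difference kept its direction when any library was left out and ranged there between 0.40 and 0.93, with 0.52 without Ndp KO library 1 and 0.78 without library 1 of both genotypes. The antisense gene Gm29114 shares 144 exonic bases with Ikzf2 and averaged 23.2 normalized counts, and without strand information reads in the shared stretch cannot be told apart.

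Of 12930 genes with a mean of at least 100 normalized counts, the gene whose log2 values followed Ikzf2 most closely over the 8 libraries was Chrna9, a nicotinic receptor subunit of the efferent synapse on outer hair cells. Its Pearson's r with Ikzf2 was 0.994 and its Spearman's rho 0.976, and r stayed between 0.991 and 0.997 when any library was left out. Chrna9 had 25568, 20064, 25048 and 21158 normalized counts in Ndp KO, against 23110, 16077, 17799 and 21334 in WT, so a span of 1.59 times in Chrna9 went with 4.04 times in Ikzf2. The second gene was Arrb1, a beta-arrestin, with r = 0.990 and rho = 1.00. These correlations describe 8 libraries that share their preparation and size factors, and the 2 genes were taken as the highest of many.

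Of the other 12 genes on the outer hair cell list, 4 had an r above 0.7 with Ikzf2, where 3.36% of all genes did, and the median r was 0.59. They were Ocm (the calcium buffer oncomodulin, r = 0.89), Sri (r = 0.88), Lmod3 (r = 0.74) and Aqp11 (r = 0.71), and Slc26a5 (prestin, the outer hair cell motor protein) had r = 0.67. Of 12 inner hair cell genes 0 had an r above 0.7, and the median r was -0.052. Without Ndp KO library 1 the outer hair cell count was 2 of 12, with a median of 0.52 and 4.74% of all genes, and without library 1 of both genotypes it was 3 of 12, with 6.30% of all genes. Between the genotypes, with Chrna9 included, 12 of the 13 outer hair cell genes had a positive difference, as had 52.5% of all genes tested. An unadjusted p under 0.05 was reached by 4 of the 13, all higher in Ndp KO, and by 5.57% of all genes tested. The median difference of the 13 was 0.29, and 0 were called. The 4 were Strip2 (log2 0.68 ± 0.24, SE), Slc26a5 (0.86 ± 0.34), Aqp11 (0.56 ± 0.23) and Ocm (0.85 ± 0.38), each at an adjusted p of 0.895 (limma). Ocm had 27694 ± 8536 in Ndp KO and 16711 ± 8852 in WT, and Slc26a5 had 19269 ± 8875 in Ndp KO and 9849 ± 2340 in WT (SD, n = 4 each). Of the 12 inner hair cell genes 8 were positive and 0 were called, with a median of 0.21.

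**Figure D2:**
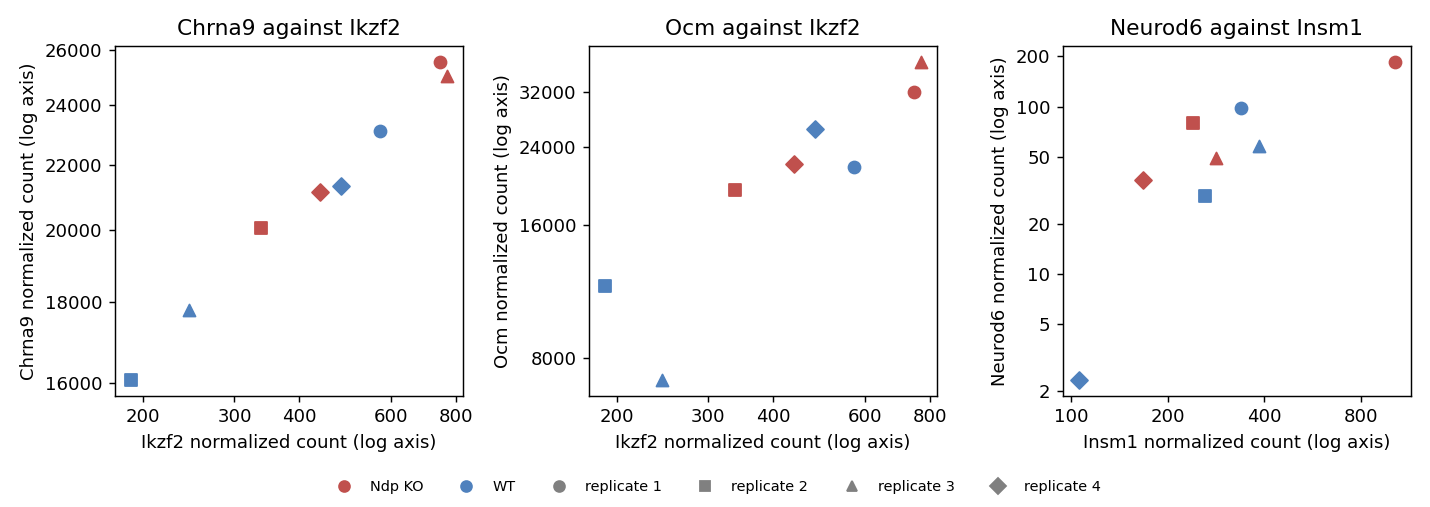
Normalized counts (log axes) of Chrna9 and of Ocm against Ikzf2, and of Neurod6 against Insm1; each point is a library, red for Ndp KO and blue for WT. Chrna9 lies close to a line with Ikzf2 (r = 0.994), while Ocm with Ikzf2 (r = 0.89) and Neurod6 with Insm1 (r = 0.838) scatter more widely.

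Insm1 (ENSMUSG00000068154, chromosome 2, 146221921 to 146225020, plus strand) had 1018, 239, 282 and 167 normalized counts in Ndp KO, against 338, 262, 384 and 106 in WT. Ndp KO library 1 was 4.26 times the median of the other 3 Ndp KO libraries, which lay within the WT range. The means were 427 ± 397 in Ndp KO and 273 ± 122 in WT (SD, n = 4 each). The log2 difference was 0.42 ± 0.56 (SE; 95% interval -0.83 to 1.66; limma, adjusted p = 0.979). Without Ndp KO library 1 the difference was -0.13, with an Ndp KO mean of 229.6 ± 58.2 (SD, n = 3), and without library 1 of both genotypes it was 0.027. Its coefficient of variation over the 8 libraries was 81.3%, higher than that of 98.1% of the 3286 genes within a factor of 2 of its mean, whose median was 28.7%. The genes most like it were Dpysl5, of the collapsin response mediator family of growing axons (r = 0.958, rho = 1.00), and Gng2, a G protein gamma subunit (r = 0.948, rho = 0.667), and both were highest in Ndp KO library 1.

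The other neuronal factor, Neurod6 (ENSMUSG00000037984, chromosome 6, 55677822 to 55681263, minus strand), was low. It had 186, 79.4, 49.6 and 36.3 normalized counts in Ndp KO, against 98.2, 29.2, 58.5 and 2.33 in WT. Library 1 was the highest of each genotype, and WT library 4, with 2 reads, lay below the floor of 3 reads. The means were 87.7 ± 67.7 in Ndp KO and 47.1 ± 41.1 in WT (SD, n = 4 each). The log2 difference was 1.39 ± 0.96 (SE; 95% interval -0.73 to 3.52; limma, adjusted p = 0.938). Without WT library 4 it was 0.37, and without WT library 1 it was 2.01, while without Ndp KO library 1 it was 0.94 and without library 1 of both genotypes 1.56. The most similar genes were St7l (r = 0.976, rho = 0.905) and Pja1, a ubiquitin ligase (r = 0.967, rho = 0.881).

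Insm1 and Neurod6 followed each other over the 8 libraries (r = 0.838, rho = 0.762). The correlation was 0.850 without Ndp KO library 1 and 0.826 without library 1 of both genotypes. Each of these values includes WT library 4, the lowest in both genes, where Neurod6 lay below the floor of 3 reads. The correlation without WT library 4 was not computed, so how far it rests on that library is not known. Every other pair of members had an r of at most 0.345 in size over all 8 libraries, with a rho of -0.524 for Bcl11b and Neurod6. Over the 6 libraries without library 1 of both genotypes, r was 0.481 for Insm1 and Bcl11b, 0.474 for Insm1 and Tbx2, and 0.443 for Tbx2 and Neurod6. Of 10 tested neuron markers, 4 had an r above 0.7 with Insm1 and 3.16% of all genes did. Without Ndp KO library 1 the count was 0 of 10, with 5.59% of all genes, and without library 1 of both genotypes it was 1 of 10, with 13.5% of all genes. Of the 12 listed neuron markers, of which 10 were tested, 7 were highest in Ndp KO library 1, as were 11.6% of all genes tested. That library had been singled out for Neurod1, itself a factor of neurons, so this count is a description and no separate support. Gap43, a protein of growing axons, had 2405, 21.6, 89.3 and 62.7 in Ndp KO and 300, 44.7, 45.2 and 83.7 in WT, and Elavl3 had 128 in Ndp KO library 1 and 59.1 in WT library 1. Summed neuron markers, mostly neurofilament genes, lay at 23427 to 29344 in Ndp KO and 21403 to 27670 in WT. Over all 8 libraries, 2 of 12 inner and 0 of 13 outer hair cell genes had an r above 0.7 with Insm1. With Neurod6, 3 of 12 inner hair cell genes, 0 of 13 outer hair cell genes and 1 of 10 neuron markers did. Of all genes, 5.23% had an r above 0.7 with Neurod6. The part of neuron transcripts in the Insm1 and Neurod6 values was not tested, nor was that of inner hair cell transcripts.

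The bases upstream of Neurod6 are shown because it was the only member whose promoter window began at the annotated gene start. Factors of the Neurod family bind the E box, CANNTG. The 250 bases before its start (RefSeq, GRCm38.p6, minus strand, chr6:55681264-55681513) are given 5′ to 3′ with the E boxes in capitals.
Neurod6: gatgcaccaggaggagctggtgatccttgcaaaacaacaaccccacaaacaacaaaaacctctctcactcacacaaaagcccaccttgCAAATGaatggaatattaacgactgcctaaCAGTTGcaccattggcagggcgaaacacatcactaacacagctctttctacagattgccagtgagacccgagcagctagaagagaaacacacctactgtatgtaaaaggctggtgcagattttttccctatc
A search of both strands found 2 matches to the E box, at 162 to 157 and at 132 to 127 bases before the start. The E box is present in 66.2% of 32851 promoter windows of this length, and a match is a description and not a site. The same window held 1 GGGAA, a core bound by Ikaros family factors, found in 56.2% of windows, and 0 GGTGTGA, a T-box motif found in 3.33% of windows.

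**Figure D3:**
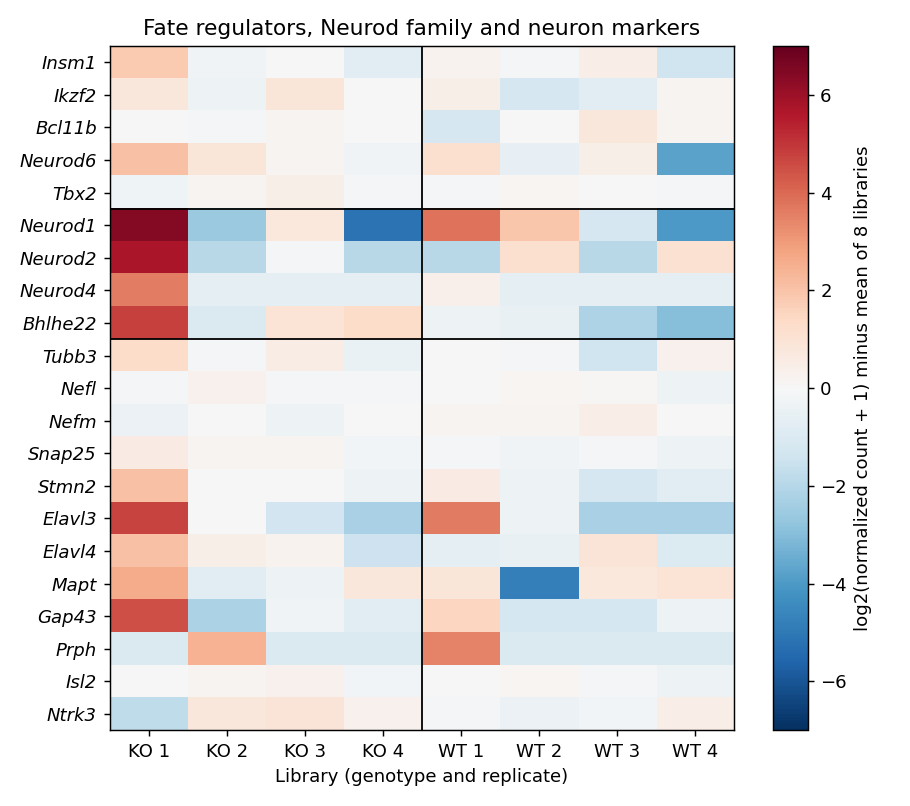
Log2(normalized count + 1) of the members (top), of Neurod1, Neurod2, Neurod4 and Bhlhe22 (middle) and of 12 neuron markers (bottom), each less its mean over the 8 libraries, Ndp KO left and WT right, with red above and blue below the mean. Ndp KO library 1 is the reddest column for Insm1, Neurod1, Neurod2, Bhlhe22 and Gap43.

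Bcl11b (ENSMUSG00000048251, chromosome 12, 107910403 to 108003602, minus strand) was even in Ndp KO and spread in WT. It had 802, 749, 892 and 823 normalized counts in Ndp KO, against 353, 806, 1398 and 889 in WT. All 4 Ndp KO libraries lay inside the WT range, whose ends were WT library 1 and WT library 3. The means were 817 ± 59.2 in Ndp KO and 862 ± 428 in WT (SD, n = 4 each), and the log2 difference was 0.080 ± 0.34 (SE; 95% interval -0.68 to 0.84; limma, adjusted p = 0.996). The difference in means and that on the log2 scale have opposite signs, and without WT library 1 the log2 difference was -0.30, without Ndp KO library 1 it was 0.087, and without both -0.29. T lymphocytes also make Bcl11b. Their markers summed to 258 to 510 in Ndp KO and 311 to 588 in WT, mostly Tcf7 and Lck. Of these markers, Cd3e was 0 in all 4 Ndp KO libraries and at most 6.98 in WT. The part of T lymphocyte transcripts in the Bcl11b values was not tested. The genes most like Bcl11b were Ndor1, a diflavin oxidoreductase (r = 0.992, rho = 0.905), and Svil, the actin-binding supervillin (r = 0.974, rho = 0.976).

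The inner hair cell factor Tbx2 (ENSMUSG00000000093, chromosome 11, 85832551 to 85841948, plus strand) varied least of the 5, with a coefficient of variation of 17.6% over the 8 libraries. It had 4629, 6567, 7784 and 5180.3 normalized counts in Ndp KO, against 5173, 6442, 5548 and 5332 in WT. Ndp KO held both the lowest library (1) and the highest (3). The means were 6040.4 ± 1420.1 in Ndp KO and 5624 ± 567 in WT (SD, n = 4 each). The log2 difference was 0.079 ± 0.17 (SE; 95% interval -0.30 to 0.46; limma, adjusted p = 0.990). Without Ndp KO library 3 it was -0.053, without Ndp KO library 1 it was 0.20, and without library 1 of both genotypes 0.16. Its closest genes were Clk3, a kinase of splicing factors (r = 0.954, rho = 0.952), and Dlgap1, a postsynaptic scaffold (r = 0.942, rho = 0.952).

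Of the 12 inner hair cell genes 0 had an r above 0.7 with Tbx2, where 1.90% of all genes did, and 1 did without Ndp KO library 1, where 4.07% of all genes did. Of 6 tested Schwann cell and glia markers 3 did over all 8 libraries, Mbp at 0.90, Foxd3 at 0.76 and Erbb3 at 0.72, and the median of the 6 was 0.68. The count was 2 of 6 without Ndp KO library 1, with a median of 0.55, and 2 of 6 without library 1 of both genotypes, with a median of 0.63 and 5.60% of all genes. The 7 listed glia markers summed to 6429.9, 9377, 14272 and 8386 in Ndp KO, against 8665, 11811, 8243 and 6389 in WT. Ndp KO library 3 was the highest in both Tbx2 and this sum. Of 13 supporting cell markers, 2 had an r above 0.7 with Tbx2 over all 8 libraries. The highest was 0.78 and the median of the 13 was 0.18. The part of glia or supporting cell transcripts in the Tbx2 values was not tested.

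Per kilobase of exon, Tbx2 was the highest member in 8 of 8 libraries, at 3.89 to 19.6 times the second. The mean level per kilobase of Tbx2 was 1666 normalized counts in Ndp KO and 1551 in WT, above that of 91.6% of 18195 genes. Insm1 had 138 in Ndp KO and 87.9 in WT, Bcl11b had 100.7 in Ndp KO and 106 in WT, Ikzf2 had 49.3 in Ndp KO and 32.0 in WT, and Neurod6 had 40.8 in Ndp KO and 21.9 in WT. Tbx2 thus led by a wide margin, while the order of neighbours below it changed between libraries: Bcl11b was above Insm1 in 6 of 8 libraries, the exceptions being library 1 of each genotype, Bcl11b was above Ikzf2 in 7 of 8, and Ikzf2 was above Neurod6 in 5 of 8.

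**Figure D4:**
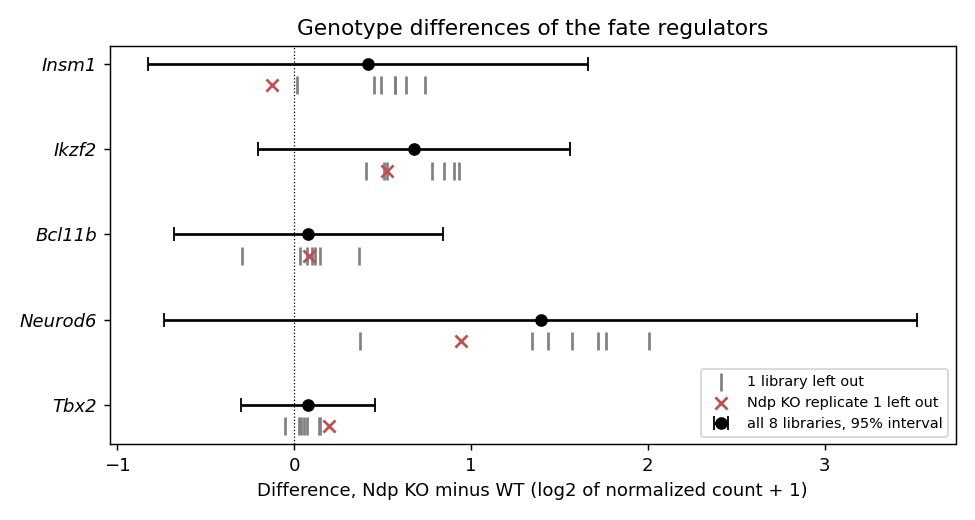
Log2 difference (Ndp KO minus WT) of each member over all 8 libraries with its 95% interval from limma (black), and the same difference with 1 library left out (grey ticks; red cross without Ndp KO library 1). The intervals of all 5 members cross 0, and the red cross of Insm1 lies at -0.13.

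A single title date occurs in both genotypes, for Ndp KO library 2 and WT library 2. That pair gave a log2 difference of -0.13 for Insm1, where the other 6 libraries gave 0.60, and 0.83 for Ikzf2, where the others gave 0.63. It gave 0.028 for Tbx2 (others 0.096), -0.11 for Bcl11b (others 0.14) and 1.41 for Neurod6 (others 1.39). The pair has 1 library per genotype and no replicate check.

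In the authors' deposited table, a DESeq2 comparison, the unshrunken log2 differences, given there as WT over Ndp KO, were -0.65 for Insm1, -0.62 for Ikzf2, -0.10 for Tbx2, 0.078 for Bcl11b and -0.90 for Neurod6. The adjusted p-values of all 5 were 1.00 to 2 decimals in the authors' deposited table, where 0.136% of 25078 genes passed 0.05 and Ndp had 0.129.

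Among close relatives of the members, 13 of 18 were in the table and 8 were tested. Of the 8, 5 had a positive and 3 a negative difference (median 0.30), where 52.5% of all genes tested were positive. An unadjusted p under 0.05 (limma) was reached by 1 of the 8 and by 5.57% of all genes tested, and 0 of the 8 were called. The 1 gene was Tbx18, a T-box factor of mesenchyme, with 134 ± 53.4 normalized counts in Ndp KO and 68.1 ± 26.0 in WT (SD, n = 4 each; log2 0.96 ± 0.43, limma, adjusted p = 0.895). Mesenchyme markers summed to 23549 to 36830 in Ndp KO and 21689 to 26198 in WT, and their part in the Tbx18 difference was not tested. Bcl11a, the relative of Bcl11b, had 1051 ± 239 in Ndp KO and 1075 ± 213 in WT, and Insm2 had 99.8 in Ndp KO and 82.1 in WT. Ikzf1 (Ikaros), a lymphocyte factor, had 9.47 ± 7.99 in Ndp KO and 33.2 ± 30.4 in WT (log2 -1.74 ± 0.86, limma, adjusted p = 0.903). Ikzf4 had 49.95 ± 33.7 in Ndp KO and 35.2 ± 24.0 in WT, where WT library 1, at 2.11, lay below the floor of 3 reads. Ikzf5 had 1709 ± 218 in Ndp KO and 1442 ± 195 in WT. Tbx3, the nearest relative of Tbx2, had 4.31 in Ndp KO and 2.28 in WT and was below the minimum.

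Of 24 genes of co-repressor complexes and E protein partners, 10 had a positive and 14 a negative difference (median -0.036), where 52.5% of all genes tested were positive. An unadjusted p under 0.05 (limma) was reached by 3 of the 24, Chd3, Gatad2b and Chd5, and by 5.57% of all genes tested. Of the 24, 0 were called. Chd3, a remodeller of the NuRD complex, had 387 ± 62.5 in Ndp KO and 540.4 ± 76.0 in WT (log2 -0.48 ± 0.20, limma, adjusted p = 0.895). Gatad2b, a NuRD subunit, had 709 ± 119 in Ndp KO and 981 ± 218 in WT (log2 -0.46 ± 0.20). Chd4, the main NuRD remodeller, had 5926, 5436, 5827 and 5585 in Ndp KO, against 6040, 6718, 8328 and 6171 in WT. Its genotypes did not overlap, as for 3.04% of all genes tested, and its unadjusted p was 0.0895 (limma). Chd5, the neuronal remodeller, had 48.5, 15.7, 34.3 and 22.0 in Ndp KO, against 51.7, 1.83, 0 and 1.16 in WT. WT library 1 thus lay with the Ndp KO libraries, and the other 3 lay below the floor of 3 reads. Its unadjusted p was 0.034 by limma and 0.38 by edgeR.

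Of 19 genes of the signals that pattern the medial to lateral axis of the duct, 5 had a positive and 14 a negative difference (median -0.094). Of all genes tested, 52.5% were positive. An unadjusted p under 0.05 (limma) was reached by 0 of the 19 and by 5.57% of all genes tested. Fgf8, a growth factor of inner hair cells, had 1482 ± 203 in Ndp KO and 1706 ± 319 in WT. Its receptor gene Fgfr3 had 10155 ± 2784 in Ndp KO and 14045 ± 7848 in WT, Fgfr2 had 227 ± 123 in Ndp KO and 109 ± 55.1 in WT, and Dll1, a Notch ligand of newborn hair cells, had 863 ± 176 in Ndp KO and 1226 ± 340.2 in WT (SD, n = 4 each). Of the inner hair cell genes, Shtn1 did not overlap, at 858 to 1090.1 in Ndp KO and 582 to 848 in WT (log2 0.38 ± 0.18, limma, adjusted p = 0.903). The same held for 3.04% of all genes tested. Otof (otoferlin, which drives transmitter release) had 52394 ± 6857 in Ndp KO and 41592 ± 15987 in WT, and the ranges overlapped.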

How the data were processed

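RNA of 8 libraries was analysed from a single deposited table. Its signal columns hold normalized counts made by the authors, and their values behave as gene counts over a size factor for each library. Log2 fold changes and p-values from DESeq2 stand in the same table, per the file headers. Salmon 0.14.2, DESeq2 1.26.0, bcl2fastq 2.20 and mm10 are named without roles, per the submitters' processing notes. The Nextera XT libraries, per the labels' protocols, do not mark strand.

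Whole reads were recovered from the normalized counts, and 100% of 202744 values were whole within 1e-06. Whole numbers do not tell counted reads from rounded estimates, and they are called reads here. A floor of 3 reads was worth 2.34 to 3.49 normalized counts and covers counting error only. Groups came from the genotype labels. limma 3.58.1 (R 4.3.3, intensity trend) on log2(normalized count + 1) was fitted to the 18203 genes with 10 or more in 4 or more libraries, and p-values were adjusted over all of them. On this scale the added 1 can shrink the difference of a low gene, and a library near 0 can enlarge it. edgeR 4.0.16 and DESeq2 1.42.0 on the recovered reads were alternatives, where edgeR called 0 genes and DESeq2 34.

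Members and gene lists were chosen with earlier results of these data known. Named genes were the members, Ndp, the 2 genes most correlated with each member and up to 4 genes per list with the smallest p, while other named genes, among them Sri, Lmod3, Gap43 and Elavl3, were chosen after their values were seen. Exon lengths came from GENCODE annotation of GRCm38 and promoters from a table of RefSeq sequences, in which 2 of the 5 members, Bcl11b and Neurod6, were matched. A window was kept only where its start site was the annotated gene start, which left Neurod6 and not Bcl11b. A glia marker is not reported here, and the glia counts and sums leave it out.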

Additional observations from a re-analysis of the deposited data

Results flagged for a closer look

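A library was marked where its gap to the nearest other of its genotype exceeded 0.829 of the genotype's range. For normally distributed values, chance marks about 1 in 20 groups. That rate need not hold here, because linear normalized counts were used and many genes were named for a small p or a high correlation. Of 72 groups 5 were marked, 3 of them in Ndp KO library 1. Of these 3, Dpysl5 and Gng2 were named for their correlation with Insm1, so the 3 marks are not independent. Insm1 had 1018 normalized counts in that library and 282 in the next Ndp KO library. Dpysl5 had 1208 there and 549 in the next. Gng2 had 888 there and 221 in the next. Chd5 had 51.7 in WT library 1 and 1.83 in the next WT library. Atp2a3, a calcium pump gene of the inner hair cell list, had 24123 in WT library 2 and 9545 in the next WT library.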

How the results depend on the processing

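The number of genes called was 1 in the reported fit and remained 1 with a pseudocount of 5, with no filter, and with library-total or TMM scaling. It was 0 with a pseudocount of 0.1, with a minimum of 50, by edgeR (827 genes at an unadjusted p under 0.05), without the shared title date and without library 1 of both genotypes, 34 by DESeq2, 3 with no intensity trend, and 0 to 2 when each library was left out in turn. The cause was not tested. Differences turned sign in these cases: Insm1 to -0.13 without Ndp KO library 1, Tbx2 to -0.053 without Ndp KO library 3, Bcl11b to -0.085 by edgeR and -0.078 by DESeq2, to -0.30 without WT library 1 and to -0.29 without library 1 of both genotypes, Ikzf4 to -0.066 without WT library 1 and -0.056 without library 1 of both genotypes, and Fgfr3 to 0.097 without the shared title date. With each library left out in turn, Insm1 ranged over -0.13 to 0.74, Tbx2 over -0.053 to 0.20, Bcl11b over -0.30 to 0.37 and Ikzf4 over -0.066 to 1.31. Leaving out library 1 of both genotypes was chosen after seeing the data. No paired analysis was possible because the labels give no replicate numbers and those used here follow accession order. Neurod6 had the widest interval of the 5 members and a WT library below the floor of 3 reads, so its difference is the least precise.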
